A study of Mus musculus with 12 samples.

Results

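The Kruppel-like factors (KLFs) are transcription factors whose carboxy-terminal zinc fingers bind CACCC boxes and GC boxes in promoters. Members with similar fingers differ in the partners their amino-terminal parts recruit. KLF4, KLF5, KLF6 and KLF7 form a group that mostly activates, with acetyltransferases such as p300 as partners of several of them. KLF3 represses through CtBP, and KLF9, KLF10 and KLF13 carry a SIN3-interacting helix. In the intestine KLF5 is known from proliferating crypt cells and KLF4 from goblet and other post-mitotic cells. Of the 55335 gene entries counted, the 9 genes Klf3, Klf4, Klf5, Klf6, Klf7, Klf9, Klf10, Klf13 and Klf15 were taken by symbol and are described across 12 bulk RNA-seq libraries.

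The libraries fell into 4 groups of 3, all from small intestinal organoids, which are epithelial cultures, of a single female Lgr5GFPDTR/+ mouse whose line the labels call line26 wild type. This allele places a green fluorescent protein and a diphtheria toxin receptor at the stem cell gene Lgr5, and all groups carried it. In the RANKL group, organoids received 3 µM of the GSK3 inhibitor CHIR99021 and 1.5 mM of the histone deacetylase inhibitor valproic acid for 3 days. After 1 day in ENR medium (EGF, Noggin and R-spondin), they had 100 ng/mL RANKL, the cytokine that induces M cells, for 6 days. The ENR control organoids were kept in ENR medium over those 6 days, and whether they had the same pretreatment is not stated, since the prefix CVENR of their names is not spelled out in the labels. The RANKL+CSRM617 group had RANKL with 40 µM CSRM617, an inhibitor of the transcription factor ONECUT2, over the same 6 days. RANKL II is the RANKL set made for that comparison, and the protocol gives the pretreatment for all RANKL cultures. The 3 libraries of a group were independent differentiation experiments on a single line, so p-values measure the spread between experiments and not between animals.

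Library totals were 6351155 to 7719157 counts for RANKL, 5795541 to 7577492 for ENR control, 10225102 to 14041947 for RANKL+CSRM617 and 8669153 to 11241811 for RANKL II. Ribosomal RNA loci took 9.71 to 10.7% of counts in RANKL and 21.9 to 35.5% in ENR control libraries. In the other comparison they took 15.3 to 15.8% in RANKL+CSRM617 and 6.44 to 6.71% in RANKL II. All 8 epithelial markers checked had counts in each group. All 8 M cell markers had counts in the 3 RANKL-treated groups, and their levels in CPM, counts scaled to a common library size, summed to 946 to 1030 in RANKL, against 58.0 to 63.7 in ENR control, where Sox8 and Gp2 were at 0. The 7 immune markers summed to at most 4.07 CPM and the 7 stromal and endothelial markers to at most 3.2 CPM, with Adgre1, Col3a1, Col1a2 and Cdh5 at 0 in each group. Fold changes also followed the GC content of transcripts, with a Spearman rho across genes of -0.316 for RANKL over ENR control (13383 genes) and 0.586 for RANKL+CSRM617 over RANKL II (13964 genes). Each fold change was therefore computed a second time with GC offsets, which take this trend out of each library and brought rho to 0.007 and 0.004.

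The bases before the start site are shown for Klf6 and Klf9, which had the largest changes with RANKL, and for Klf4, which had the largest change with CSRM617. The sequences are the 250 bases upstream in the RefSeq table of GRCm38.p6, which held 7 of the 9 members, all but Klf5 and Klf10. They lie at chr13:5861239-5861488 on the plus strand for Klf6, chr19:23140976-23141225 on the plus strand for Klf9 and chr4:55532476-55532725 on the minus strand for Klf4. Capitals mark the motifs that KLFs bind, CACCC (or GGGTG on the other strand) and the GC box GGGCGG (or CCGCCC).
Klf6: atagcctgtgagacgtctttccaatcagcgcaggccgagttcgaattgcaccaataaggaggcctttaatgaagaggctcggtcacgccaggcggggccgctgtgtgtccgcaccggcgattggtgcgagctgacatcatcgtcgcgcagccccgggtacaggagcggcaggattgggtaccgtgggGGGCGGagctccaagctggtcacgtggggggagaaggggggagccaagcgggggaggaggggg
Klf9: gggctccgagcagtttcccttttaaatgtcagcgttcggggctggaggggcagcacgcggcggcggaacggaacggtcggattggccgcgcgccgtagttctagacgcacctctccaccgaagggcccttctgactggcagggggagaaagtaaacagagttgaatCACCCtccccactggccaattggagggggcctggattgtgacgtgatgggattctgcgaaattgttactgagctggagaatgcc
Klf4: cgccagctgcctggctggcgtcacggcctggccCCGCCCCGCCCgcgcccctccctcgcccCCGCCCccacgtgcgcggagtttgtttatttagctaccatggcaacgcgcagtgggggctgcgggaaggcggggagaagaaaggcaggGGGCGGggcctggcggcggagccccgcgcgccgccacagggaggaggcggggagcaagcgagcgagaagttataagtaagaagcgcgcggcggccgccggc

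The Klf6 window held 1 GC box and no CACCC, the Klf9 window 1 CACCC and no GC box, and the Klf4 window 4 GC boxes and no CACCC. Among all 32851 upstream windows of this length, 52.0% held CACCC and 32.7% a GC box. Klf3 had the most matches of the 7, with 5 CACCC and 6 GC boxes, some of them overlapping. Klf13 had 1 and 3, Klf7 had 3 and 1, and Klf15 had 1 of each. TATAAA (12.4% of windows) and the kappa B consensus, the motif of the factors that RANKL activates (3.9% of windows), had no match in the 7 windows on either strand. A match is a description of letters and not a binding site.

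All 9 are protein-coding genes on different chromosomes of GRCm38 (GENCODE M21). Klf6 spans bases 5861482 to 5870394 of chromosome 13, Klf5 spans 99298691 to 99315036 of chromosome 14 and Klf9 spans 23141226 to 23168134 of chromosome 19, all on the plus strand. Klf3 lies at 64803388 to 64832901 of chromosome 5 and Klf15 at 90462576 to 90475238 of chromosome 6, on the plus strand too. On the minus strand, Klf7 lies at 64029447 to 64122282 of chromosome 1, Klf4 at 55527143 to 55532466 of chromosome 4, Klf13 at 63886351 to 63938915 of chromosome 7 and Klf10 at 38291463 to 38300706 of chromosome 15. Counts and levels cover all exons of a gene. The RefSeq start sites behind the upstream windows are not always those of GENCODE. The Klf7 window, at 64121390 to 64121639, lies inside the gene as given here. The windows of Klf3 (64803271 to 64803520) and Klf6 run past the gene starts given here.

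Klf5 was the most abundant member in each group in CPM per kilobase of exon, the scale used here between genes. It averaged 103.5 CPM per kb in RANKL and 83.2 in ENR control, and 91.9 in RANKL+CSRM617 and 107.4 in RANKL II. That was 52.8 and 52.9% of the summed level of the 9 genes in RANKL and ENR control, and 53.3 and 53.8% in RANKL+CSRM617 and RANKL II. Klf6 was the member whose place differed most between RANKL and ENR control. It held 13.8% of the sum and the second place in RANKL, against 5.66% and the fifth place in ENR control. It held 11.7% in RANKL+CSRM617 and 12.8% in RANKL II, second in both. These shares and places rest on the union of all exons of a gene. For Klf3 that union is 11243 bp and the longest transcript 5221 bp, against 4391 and 4225 bp for Klf6. Levels per kb of the longest transcript were not computed, but that length would raise Klf3 against Klf6. The places of Klf3 and Klf6 are thus given for the exon union only.

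In RANKL the order of mean levels per kb was Klf5, Klf6, Klf3, Klf10, Klf13, Klf7, Klf9 and Klf4, and the ranges of Klf6 and Klf3 and those of Klf10 and Klf13 overlapped. In ENR control it was Klf5, Klf3, Klf10, Klf13, Klf6, Klf7, Klf4 and Klf9, with overlap between Klf10 and Klf13. In RANKL+CSRM617 it was Klf5, Klf6, Klf3, Klf10, Klf13, Klf4, Klf9 and Klf7, with overlap between Klf4 and Klf9. In RANKL II it was Klf5, Klf6, Klf3, Klf10, Klf9, Klf13, Klf7 and Klf4, with no overlap between neighbours. The summed level of the 9 members was 196.1 ± 1.59 CPM per kb in RANKL, against 157.2 ± 5.66 in ENR control, and 172.5 ± 1.89 in RANKL+CSRM617, against 199.7 ± 2.66 in RANKL II (SD, n = 3 each). The 9 made up 94.0, 90.2, 94.1 and 95.5% of the summed level of all 17 KLF genes in RANKL, ENR control, RANKL+CSRM617 and RANKL II. The 2 count tables were scaled separately, so levels set across them carry that limit. The RANKL and RANKL II sets also differed by gene. Klf9 averaged 5.53 CPM per kb in RANKL and 10.41 in RANKL II, and Klf10 11.9 and 17.93. Klf3 went the other way (26.49 and 19.19), as did Klf13 (11.44 and 8.47). Klf5 (103.5 and 107.4), Klf6 (27.01 and 25.46) and Klf7 (6.595 and 6.588) lay closer. What set the 2 apart was not tested.

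**Figure D1:**
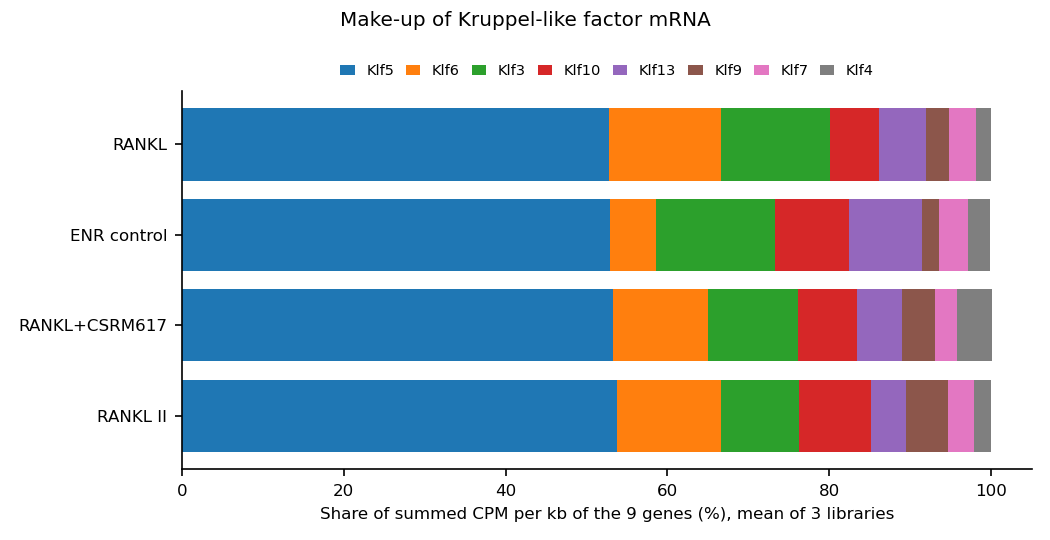
Share of each member in the summed CPM per kb of exon of the 9 genes (percent, x axis), as the mean of 3 libraries in each group (rows). Klf5 takes 52.8 to 53.8% of each bar, while Klf6 (orange) takes 13.8% in RANKL and 5.66% in ENR control.

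Klf15, which is known for control of amino acid breakdown in muscle and liver, was hardly counted. It had 0 counts in the 3 RANKL libraries, against 2 counts in the ENR control libraries, both in replicate 2. It had 0 in the RANKL+CSRM617 and the RANKL II libraries. A count of 0 allows up to 0.138 CPM over the RANKL group, 0.0791 over RANKL+CSRM617 and 0.105 over RANKL II (3 counts of the group's total, counting error only). Klf15 did not pass the filter on low counts and has no test in the fit reported here.

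Among the other 8 members, RANKL went with more Klf6 and Klf9 mRNA above all, with smaller increases of Klf5, Klf3 and Klf7 and smaller decreases of Klf10 and Klf13. By edgeR's quasi-likelihood test with Benjamini-Hochberg adjusted p under 0.05 over 13570 genes, 5 of the 8 were higher and 2 lower in RANKL than in ENR control. Across all genes 28.7% were higher and 28.0% lower, 56.7% in all, so a call by itself was common. The groups did not overlap for the same 7 members, 5 higher and 2 lower, against 32.2% and 31.2% of all genes. With GC offsets 3 members were higher (Klf5, Klf6 and Klf9) and 1 lower (Klf10), where the shares of all genes were 26.8% and 26.8%. The median log2 change of the 8 was 0.23, and that of all genes 0.00. In a bulk library, fewer cells of a type and less RNA per cell cannot be told apart.

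Klf6, a factor known to restrain growth, had 113.0, 122.4 and 120.4 CPM in RANKL libraries, against 38.0, 41.1 and 38.2 CPM in ENR control libraries. The 3 RANKL libraries stood far above all controls, by a factor of 3.02 (log2 1.60, SE 0.0874, adjusted p = 4.64e-10). The gene has a GC content of 42.4%, a range in which other genes also tended upward, and GC offsets left a log2 change of 1.36. Of the 548 genes with 42 to 43% GC, the interquartile range of log2 changes ran from -0.07 to 0.59, below Klf6.

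Klf5, the activator of crypt cell proliferation, had 538.1, 536.5 and 540.3 CPM in RANKL libraries, against 421.8, 457.7 and 418.4 CPM in ENR control libraries. The RANKL libraries lay close together and above each control (log2 0.31, SE 0.0757, adjusted p = 0.00225), a change inside the interquartile range of the 720 genes of its GC content. Klf7, known from neuronal and fat cell development, had 52.3, 54.1 and 54.4 CPM in RANKL libraries, against 40.5, 44.3 and 49.8 CPM in ENR control libraries. These groups did not overlap, but the controls spread widely (log2 0.26, SE 0.0967, adjusted p = 0.0302). The call was lost with DESeq2 (adjusted p = 0.0917), with GC offsets (log2 0.17, adjusted p = 0.124), without RANKL replicate 1 (adjusted p = 0.0533), 2 (0.0964) or 3 (0.0767) and without ENR control replicate 1 (0.165). Exons of Klf7 share 3196 bp with an opposite-strand lincRNA, Gm26649. The sources used here do not give the strand setting of the counting, so the effect of this overlap on the Klf7 count is not known.

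Klf4, the factor of goblet and other differentiated epithelial cells, was the least counted of the tested members in this comparison. It had 12.7, 10.4 and 10.0 CPM in RANKL libraries, against 14.2, 12.7 and 13.3 CPM in ENR control libraries. The highest RANKL library reached the lowest control, and the difference did not pass the test (log2 -0.27, SE 0.15, adjusted p = 0.142). Its GC content is 54.6%, and with GC offsets the log2 difference was -0.09 (adjusted p = 0.632).

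Klf3, the CtBP-binding repressor, had 292.3, 302.3 and 298.9 CPM in RANKL libraries, against 265.0, 264.0 and 251.6 CPM in ENR control libraries. The groups were apart by little, and the call stood close to the threshold (log2 0.19, SE 0.0742, adjusted p = 0.0352). It was lost with upper-quartile factors (adjusted p = 0.0564), with no filter on low counts (0.0867), with GC offsets (log2 0.12, adjusted p = 0.131), without RANKL replicate 1 (adjusted p = 0.0659), 2 (0.139) or 3 (0.0806) and without ENR control replicate 1 (0.0873) or 3 (0.111). Klf3 exons share 404 bp with the opposite-strand transcript Gm20033, which had 8 to 27 counts per library, against 1101 to 2763 for Klf3.

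Klf9, a target of glucocorticoid and thyroid hormone receptors, had 27.6, 27.6 and 24.7 CPM in RANKL libraries, against 15.6, 16.4 and 17.8 CPM in ENR control libraries. All RANKL libraries were above all controls, 1.61-fold on average (log2 0.69, SE 0.119, adjusted p = 0.000144), and GC offsets left the log2 change at 0.69. Klf6 and Klf9 were the members above the interquartile range of genes of their own GC content. Klf10, an early gene of TGF-beta signalling, had 44.6, 48.0 and 56.6 CPM in RANKL libraries, against 57.8, 65.0 and 58.0 CPM in ENR control libraries. RANKL replicate 3 lay just below the lowest control, and the decrease was small (log2 -0.29, SE 0.104, adjusted p = 0.0274). It passed with GC offsets (log2 -0.31, adjusted p = 0.00998) but not with DESeq2 (adjusted p = 0.0796) or, in edgeR, without RANKL replicate 1 (0.138) or 2 (0.106).

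Klf13, a relative of Klf9 known from T cells and heart development, had 91.0, 91.1 and 76.4 CPM in RANKL libraries, against 104.4, 106.7 and 108.1 CPM in ENR control libraries. All RANKL libraries were below all controls, replicate 3 by most (log2 -0.30, SE 0.0886, adjusted p = 0.00851). The call was lost without RANKL replicate 3 (log2 -0.23, adjusted p = 0.0532) and with GC offsets (log2 -0.10, adjusted p = 0.303). Markers of mature enterocytes summed to 2410 to 3360 CPM in RANKL, against 1100 to 1420 in ENR control, but only 4 of the 8 were higher (Alpi, Apoa4, Apoa1 and Sis) and 4 were lower (Fabp1, Fabp2, Anpep and Lct). Stem and dividing cell markers summed to 2160 to 2590 CPM in RANKL, against 3600 to 4160 in ENR control, with 4 of 8 lower (Lgr5, Smoc2, Mcm2 and Mcm5), Ascl2 higher (log2 1.21) and Olfm4, Slc12a2 and Mki67 not past the test. With GC offsets Olfm4 (-1.05) and Slc12a2 (-0.25) were lower too. Goblet markers summed to 1950 to 2820 CPM in RANKL, against 1110 to 1150 in ENR control. Fcgbp, Clca1 and Zg16 were higher and Muc2, Spdef and Agr2 lower. Tff3 did not pass the test (0.27) but was higher with GC offsets (0.46). Paneth cell markers summed to 373 to 389 CPM in RANKL, against 515 to 884 in ENR control, with Mmp7 higher and the others lower. The part of these shifts, and of the M cell markers above, in the changes of the 7 members was not tested.

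**Figure D2:**
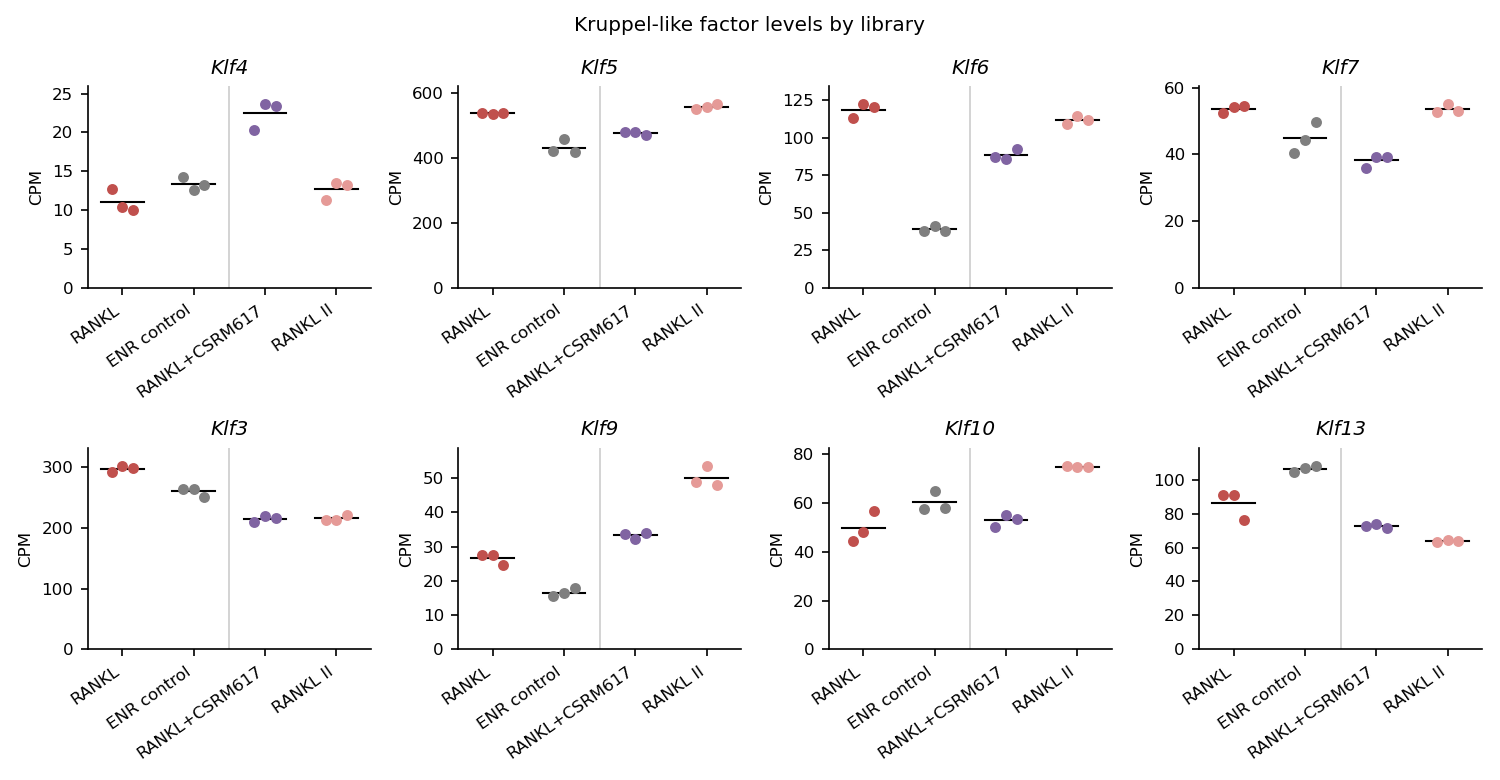
Level of each of the 8 counted members (y axis, CPM after TMM scaling) in every library, 1 point per library and a line at the mean of 3, with each comparison on its own side of a panel. In the Klf6 panel the RANKL points lie at 113.0 to 122.4 and the ENR control points at 38.0 to 41.1; in the Klf4 panel the RANKL+CSRM617 points lie at 20.3 to 23.6, above the 11.3 to 13.5 of RANKL II.

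The partners and relatives of the KLFs moved in several directions with RANKL. The median log2 change over all genes was 0.00, and the shares of all genes higher and lower are those given above (28.7 and 28.0%). Of the other KLF genes 2 of 8 were measured (median -0.58). Klf11, the nearest relative of Klf10, fell (log2 -1.06, SE 0.113, adjusted p = 9.95e-07), and Klf16 stood at -0.10 (adjusted p = 0.454). Of the related SP genes 5 of 9 were measured (median -0.08). Sp9 fell by 2.02 on the log2 scale (adjusted p = 6.21e-07), while Sp1 (-0.08), Sp2 (0.02), Sp3 (-0.17) and Sp4 (-0.06) did not pass the test. With GC offsets 4 SP genes were lower, Sp1 at -0.26, Sp3 at -0.56 and Sp4 at -0.45 among them.

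All 8 KLF corepressor genes were measured (median -0.07), with 1 higher and 2 lower. With no filter, the stricter filter, limma or without ENR control replicate 2, 2 were higher. The deacetylase Hdac1 rose (log2 0.37, adjusted p = 0.00333), and Ctbp1, the partner of KLF3, fell (log2 -0.24, adjusted p = 0.0252), as did the SIN3 gene Sin3b (log2 -0.38, adjusted p = 0.00619). With GC offsets neither decrease passed the test, and the Ctbp1 call was also lost with DESeq2 (adjusted p = 0.0512), without RANKL replicate 3 (log2 -0.17, adjusted p = 0.131) or ENR control replicate 1 (log2 -0.23, adjusted p = 0.0713). Of the 4 acetyltransferase coactivators (median -0.32), 3 were lower: Ep300 (log2 -0.26), Crebbp (log2 -0.39) and Kat2a (log2 -0.60). Kat2b stood at -0.10 (adjusted p = 0.493), and with GC offsets Ep300 no longer passed (log2 -0.14, adjusted p = 0.0816). Of 7 ubiquitin ligases that act on KLF4 or KLF5 (median 0.30), 4 were higher and 2 lower, but with DESeq2 2 were higher. Fbxo32 (log2 1.02) and Btrc (log2 0.40, but 0.04 with GC offsets) rose, and Wwp1, the ligase that marks KLF5 for degradation (log2 -0.41), and Skp2 (log2 -0.57) fell.

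Of 10 reported target genes of KLF4 and KLF6 (median 0.42), 5 were higher and 2 lower. Lama3, a laminin chain, rose by 4.50 on the log2 scale (adjusted p = 1.13e-11), the cell cycle inhibitor Cdkn1a by 2.52 (adjusted p = 1.29e-10), intestinal alkaline phosphatase Alpi by 1.98 and Ccnd1 by 0.78. Of 10 reported target genes of KLF5 (median -0.36), 3 were higher and 6 lower. Pdgfa fell by 3.73 (adjusted p = 8.4e-13), the stem cell receptor Lgr5 by 3.03 and the replication gene Mcm2 by 0.93 on the log2 scale, while Ccnd1, which is on both lists, rose. Lgr5 carries the inserted allele in all groups.

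Of 5 measured glucocorticoid-responsive genes, of 7 listed as the setting of KLF9 (median -0.13), 2 were higher and 1 lower. Fkbp5 rose (log2 1.13, adjusted p = 1.63e-06) and the receptor gene Nr3c1 fell (log2 -0.73, adjusted p = 2.91e-06), while Per1 (-0.13) and Tsc22d3 (-0.26) did not pass. Dusp1 rose (log2 0.75, adjusted p = 0.0329), a call lost with DESeq2 (0.73, 0.13), without RANKL replicate 1 (log2 0.55, adjusted p = 0.149) or 2 (0.67, 0.105) and without ENR control replicate 1 (0.82, 0.0558) or 2 (0.60, 0.108). Of 10 measured TGF-beta signalling genes, of 11 listed (median 0.14), 5 were higher and 2 lower. The inhibitors Smad7 and Skil rose by 1.68 and 1.36 on the log2 scale, and Smad3 fell (log2 -0.41). Without ENR control replicate 1, 3 of these genes were higher, and with GC offsets 4 were lower. Of 7 measured amino acid catabolism genes, of 8 listed as the setting of KLF15 (median 0.61), 4 were higher and 2 lower. Aldh4a1 (log2 1.56), Bcat2 (log2 0.87) and Gpt (log2 0.77) rose and Prodh fell (log2 -0.73), and without RANKL replicate 2, with DESeq2 or with GC offsets 1 gene was lower.

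CSRM617 added to RANKL went with more Klf4 and less Klf9, Klf10, Klf7 and Klf5 mRNA, while the direction of Klf6 and Klf13 turned on whether GC offsets were used. Over 14167 genes, 2 of the 8 tested members were higher (Klf4 and Klf13) and 5 lower (Klf5, Klf6, Klf7, Klf9 and Klf10) in RANKL+CSRM617 than in RANKL II, before GC offsets. Across all genes 35.2% were higher and 36.2% lower, 71.4% in all, so most genes were called. The same 7 members had groups that did not overlap, 2 higher and 5 lower, against 36.1% and 37.0% of all genes. With GC offsets 3 were higher (Klf3, Klf4 and Klf6) and 5 lower (Klf5, Klf7, Klf9, Klf10 and Klf13), where 30.1% and 33.5% of all genes were. The median log2 change of the 8 was -0.28, and that of all genes -0.02. Leaving out any 1 of the 6 libraries changed no member's call.

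Klf4 had 20.3, 23.6 and 23.5 CPM in RANKL+CSRM617 libraries, against 11.3, 13.5 and 13.3 CPM in RANKL II libraries. All treated libraries were above all RANKL II libraries, 1.78-fold on average (log2 0.83, SE 0.0944, adjusted p = 1.72e-10). Klf4 was the member above the interquartile range of the 670 genes of its GC content (-0.05 to 0.59), and GC offsets left a log2 change of 0.49 (adjusted p = 1.13e-06). Mature enterocyte markers summed to 8740 to 9050 CPM in RANKL+CSRM617, against 3550 to 3610 in RANKL II, and all 8 of them were higher. Goblet markers summed to 3780 to 3960 CPM in RANKL+CSRM617, against 2810 to 2890 in RANKL II, with 4 of 7 higher (Muc2, Spdef, Fcgbp and Clca1) and 3 lower (Tff3 at -0.58, Zg16 at -0.72 and Agr2 at -0.41). With GC offsets Spdef stood at -0.10 and Fcgbp at 0.04. M cell markers summed to 978 to 1010 CPM, against 974 to 992, with 4 of 8 higher and 4 lower. With GC offsets Spib (0.03), Sox8 (-0.07) and Marcksl1 (0.06) lost the call, and Tnfaip2 kept it (0.32). Ccl20 turned from -0.38 to 0.37, while Gp2, Ccl9 and Anxa5 stayed lower. Paneth cell markers summed to 875 to 899 CPM in RANKL+CSRM617, against 559 to 574 in RANKL II, with Mmp7 lower (-0.93) and the others higher. The part of these cell types in the Klf4 result was not tested.

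Klf5 had 479.3, 481.7 and 473.0 CPM in RANKL+CSRM617 libraries, against 551.9, 558.2 and 566.0 CPM in RANKL II libraries. The 8 stem and dividing cell markers did not move together. Of them 5 were higher in RANKL+CSRM617 (Mki67 by 1.15 and Olfm4 by 0.82 on the log2 scale, with Mcm5, Mcm2 and Smoc2), and Lgr5 (-0.85) and Slc12a2 (-1.49) were lower. With GC offsets Mcm2 lost the call (0.03), and Ascl2, at 0.08 before, was lower (-0.44). The sum of the 8 markers was 805 to 842 CPM in RANKL+CSRM617, against 1240 to 1260 in RANKL II, where Slc12a2 alone had 970.9 to 985.2 CPM. The part of these markers in the Klf5 result was not tested. The groups were well apart for a small decrease (log2 -0.23, SE 0.0265, adjusted p = 3.96e-10), and GC offsets left it at -0.23. Klf7 had 36.0, 39.3 and 39.4 CPM in RANKL+CSRM617 libraries, against 52.7, 55.0 and 52.9 CPM in RANKL II libraries. It too was lower in each treated library (log2 -0.48, SE 0.0591, adjusted p = 1.29e-09), and GC offsets took the change to -0.29 (adjusted p = 4.47e-06). Before GC offsets, Klf5 and Klf7 lay inside the interquartile ranges of genes of their own GC content (-0.37 to 0.27 and -0.51 to 0.11).

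Klf6 had 87.1, 86.2 and 92.4 CPM in RANKL+CSRM617 libraries, against 109.0, 114.6 and 111.9 CPM in RANKL II libraries. It was lower before GC offsets (log2 -0.34, SE 0.0426, adjusted p = 2.75e-09) and higher with them (log2 0.09, SE 0.0389, adjusted p = 0.0377). The interquartile range of the 565 genes of its GC content ran from -0.73 to -0.16, and Klf6 was inside it. Klf3 had 209.2, 219.6 and 216.5 CPM in RANKL+CSRM617 libraries, against 212.7, 213.2 and 221.3 CPM in RANKL II libraries. The groups overlapped, with a log2 difference of -0.00 (SE 0.0329, adjusted p = 0.923) before GC offsets and 0.16 with them (SE 0.0286, adjusted p = 4.94e-07).

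Klf9 had 33.7, 32.1 and 34.1 CPM in RANKL+CSRM617 libraries, against 48.8, 53.6 and 48.1 CPM in RANKL II libraries. Klf10 had 50.4, 55.0 and 53.4 CPM in RANKL+CSRM617 libraries, against 75.3, 74.8 and 74.7 CPM in RANKL II libraries. Both were lower in all treated libraries than in all RANKL II libraries, and both lay below the interquartile range of genes of their own GC content. The log2 change was -0.59 for Klf9 (SE 0.0626, adjusted p = 2.73e-11) and -0.50 for Klf10 (SE 0.0517, adjusted p = 1.4e-11), and with GC offsets -0.56 and -0.44.

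Klf13 had 72.7, 74.0 and 71.8 CPM in RANKL+CSRM617 libraries, against 63.0, 64.5 and 63.9 CPM in RANKL II libraries. It was higher before GC offsets (log2 0.19, SE 0.049, adjusted p = 0.000634) and lower with them (log2 -0.19, SE 0.0476, adjusted p = 0.000281). Its GC content of 55.5% was the highest of the 9 members, and 0.19 lay inside the interquartile range of the 613 genes of that content (0.03 to 0.68). Of the 3 members with a SIN3-interacting helix, Klf9 and Klf10 were thus lower with and without GC offsets, and Klf13 changed sign with them.

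**Figure D3:**
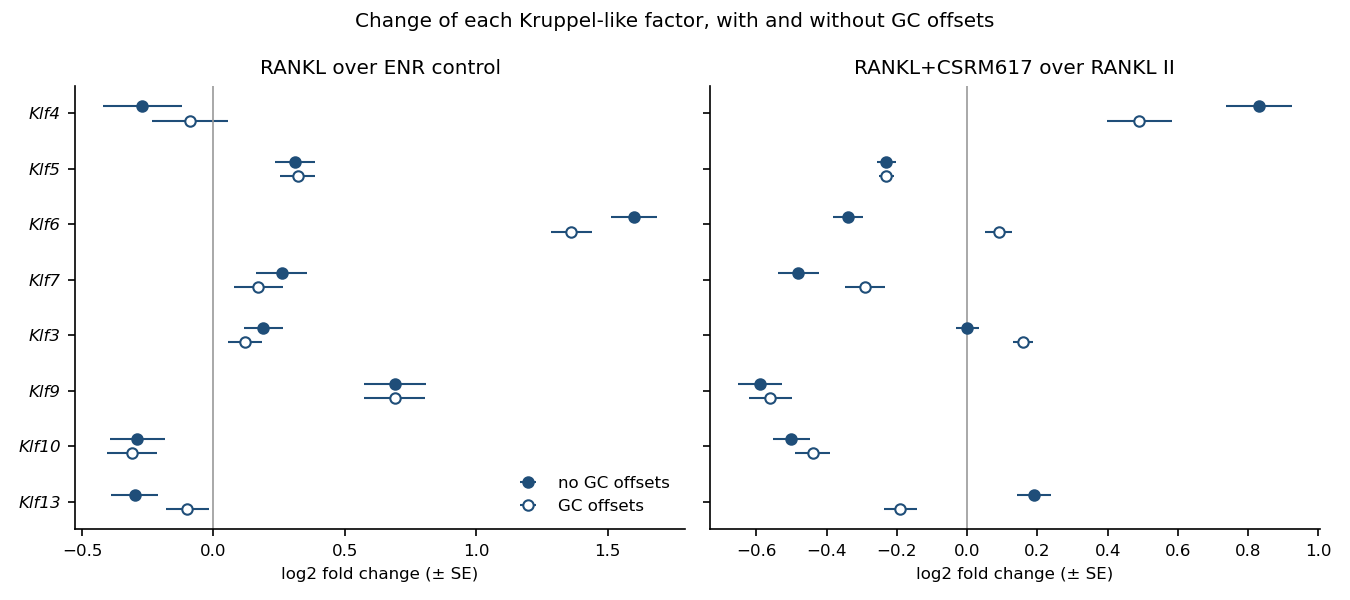
Log2 fold change of each member (x axis, bars ± SE of the edgeR fit, n = 3 libraries a group) for RANKL over ENR control and for RANKL+CSRM617 over RANKL II, without GC offsets (filled) and with them (open). Klf6 and Klf9 lie farthest right on the RANKL side in both fits; on the CSRM617 side Klf6 (-0.34 and 0.09) and Klf13 (0.19 and -0.19) change sides of 0 and Klf4 (0.83 and 0.49) does not.

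**Figure D4:**
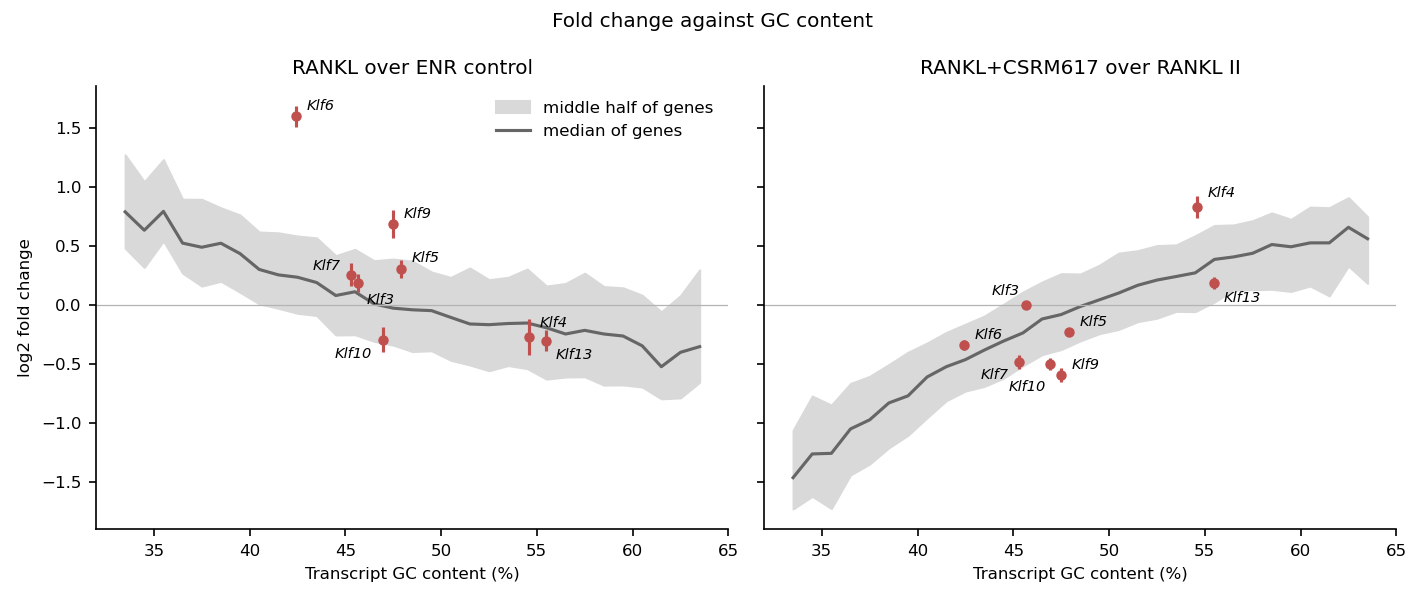
Log2 fold change (y axis) against transcript GC content (x axis, %) for the members (points ± SE) over the median (line) and the interquartile range (band) of genes in bins of 1% GC that hold at least 20 genes. Klf6 and Klf9 lie above the band on the RANKL side, and on the CSRM617 side Klf4 lies above it and Klf9 and Klf10 below it.

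With CSRM617, too, the relatives and partners were mostly called, against a median of -0.02 over all genes and the shares of 35.2% higher and 36.2% lower. Of the other KLF genes (2 of 8 measured, median 0.13), Klf16 was higher (log2 0.24, adjusted p = 0.033), but lower with GC offsets (-0.31), and Klf11 stood at 0.01 (adjusted p = 0.926). The Klf16 call was also lost with DESeq2 (adjusted p = 0.138), upper-quartile factors (0.0795) or the stricter filter (0.0571), and without RANKL+CSRM617 replicate 1 (0.168) or RANKL II replicate 2 (0.209). Of the SP genes (5 of 9 measured, median -0.25), 2 were higher and 2 lower. Sp2 (log2 0.72) and Sp9 (log2 0.69) rose, and Sp1 fell (log2 -0.61, adjusted p = 3.12e-18). Sp3 was lower (log2 -0.51) but higher with GC offsets (0.14), and Sp4 stood at -0.25 (adjusted p = 0.0913) and was higher with GC offsets (0.40). Without RANKL+CSRM617 replicate 3 or RANKL II replicate 1, Sp4 was called lower (log2 -0.39, adjusted p = 0.0125, and log2 -0.34, adjusted p = 0.0333), as it was with upper-quartile factors (log2 -0.29, adjusted p = 0.0483). With GC offsets 4 SP genes were higher and 1 lower.

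Of the 8 corepressor genes (median 0.31), 5 were higher and 1 lower. Ctbp1 (log2 0.42), Ctbp2 (log2 0.36), Sin3a (log2 0.26) and Sin3b (log2 0.50) rose. With GC offsets Ctbp1 and Ctbp2 (both 0.01) and Sin3b (0.09) lost the call, and Sin3a kept it (0.24). The other genes among the 3 higher with GC offsets were Hdac3 (0.10) and Hdac2 (0.26), which had been the lower one (-0.21). Hdac1 was lower with GC offsets (-0.20). These deacetylases were chosen here after their values were seen. All 4 acetyltransferase coactivators were higher (median 0.48). Ep300 (log2 0.46) and Crebbp (log2 0.58) kept the call with GC offsets (0.28 and 0.37), as did Kat2b (0.27, and 0.36 with offsets), while Kat2a (0.50) did not (0.04, adjusted p = 0.553). Of the 7 ubiquitin ligases (median -0.36), 1 was higher and 5 lower. The higher one, chosen here after its value was seen, was Fbxw7 (log2 0.15, adjusted p = 0.049), whose call was lost without RANKL+CSRM617 replicate 3 or any 1 RANKL II library and with DESeq2, limma, upper-quartile factors or either other filter. With GC offsets 3 ligases were higher, Fbxw7 among them (log2 0.24, adjusted p = 0.000841), and 3 lower. Vhl (log2 -0.43) and Fbxo32 (log2 -0.58) fell, while Wwp1 (log2 -0.52) and Btrc (log2 -0.19) were lower but turned to 0.16 and 0.40 with GC offsets.

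Of the 10 target genes of KLF4 and KLF6 (median -0.15), 4 were higher and 5 lower. Alpi rose by 1.12 (adjusted p = 2.68e-32) and the goblet mucin Muc2 by 0.98 on the log2 scale, and the goblet peptide Tff3 fell (log2 -0.58). Krt19 was higher (log2 0.39) but lower with GC offsets (-0.08). Of the 10 target genes of KLF5 (median -0.03), 2 were higher and 4 lower. Birc5 rose by 0.99, Myc fell (log2 -0.42) and Ccnd1 fell (log2 -0.28), and Egfr was lower (log2 -0.34, but -0.07, adjusted p = 0.144, with GC offsets).

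Of 6 measured glucocorticoid-responsive genes (median 0.05), 3 were higher and 3 lower, but with DESeq2 1 was lower. Dusp1 rose by 1.42 on the log2 scale (adjusted p = 1.7e-16). Fkbp5 was lower (log2 -0.24, but adjusted p = 0.0513 with DESeq2), while Per1 (0.30, and -0.22 with GC offsets) and Nr3c1 (-0.21, and 0.23 with GC offsets) changed sign. Of 10 measured TGF-beta signalling genes (median -0.14), 2 were higher and 5 lower. With GC offsets 1 was higher, and Smad7 turned from 0.16 to -0.28. Tgif1, a corepressor of SMAD proteins, fell (log2 -0.42), and the calls of Tgfbr1 (-0.56) and Skil (-0.52) were lost with GC offsets (-0.01 and 0.03). Of 7 measured amino acid catabolism genes (median -0.00), 2 were higher and 2 lower. With GC offsets 1 was higher and 4 lower, and with DESeq2 none was lower (Aldh4a1 adjusted p = 0.103, Bckdhb 0.236). Gpt rose (log2 0.89, and 0.39 with offsets), Bcat2 was higher (log2 0.31, but -0.01 with offsets), and Aldh4a1 (log2 -0.70, adjusted p = 0.0121) and Bckdhb (log2 -0.22, adjusted p = 0.0419) were lower. The Aldh4a1 call was lost without RANKL II replicate 1 (adjusted p = 0.0676) or 2 (0.0774), and the Bckdhb call without RANKL+CSRM617 replicate 1 (0.0933), 2 (0.092) or 3 (0.081) or RANKL II replicate 1 (0.176) or 3 (0.105).

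For the 6 members called in both comparisons, the genes with the most similar pattern over the 12 libraries were sought among 10917 genes, by Pearson's r of log2 CPM centred within each table. The libraries of a group share its treatment, depth and GC trend, and r is given as a description with no test. Klf6 was most like Pmaip1 (r = 0.998), a gene of programmed cell death, and Cdc14b (r = 0.997). Klf9 was most like Samd12 (r = 0.98) and Ghitm (r = 0.976). Klf5 was most like Reep3 (r = 0.994) and Vdac2 (r = 0.992), and Klf7 like Ap3m1 (r = 0.984) and Zfp160 (r = 0.983). Klf10 was most like Map4k5 (r = 0.982) and Parm1 (r = 0.98), and Klf13 like the histone gene Hist1h2bk (r = 0.973) and Plch1 (r = 0.973).

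Over the 17 settings tried in each comparison, Klf5, Klf6 and Klf9 were called higher with RANKL in all 17, with log2 changes of 0.28 to 0.35, 1.36 to 1.63 and 0.54 to 0.74. Klf10 and Klf13 were called in 14 each, Klf7 in 10, Klf3 in 8 and Klf4 in none. With CSRM617, Klf4 was called higher in all 17 (0.49 to 0.90), and Klf5, Klf7, Klf9 and Klf10 lower in all 17. Klf6 and Klf13 were called in all 17 as well, but with the opposite sign in the 2 settings with GC offsets, and Klf3 was called in those 2 settings alone.

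**Figure D5:**
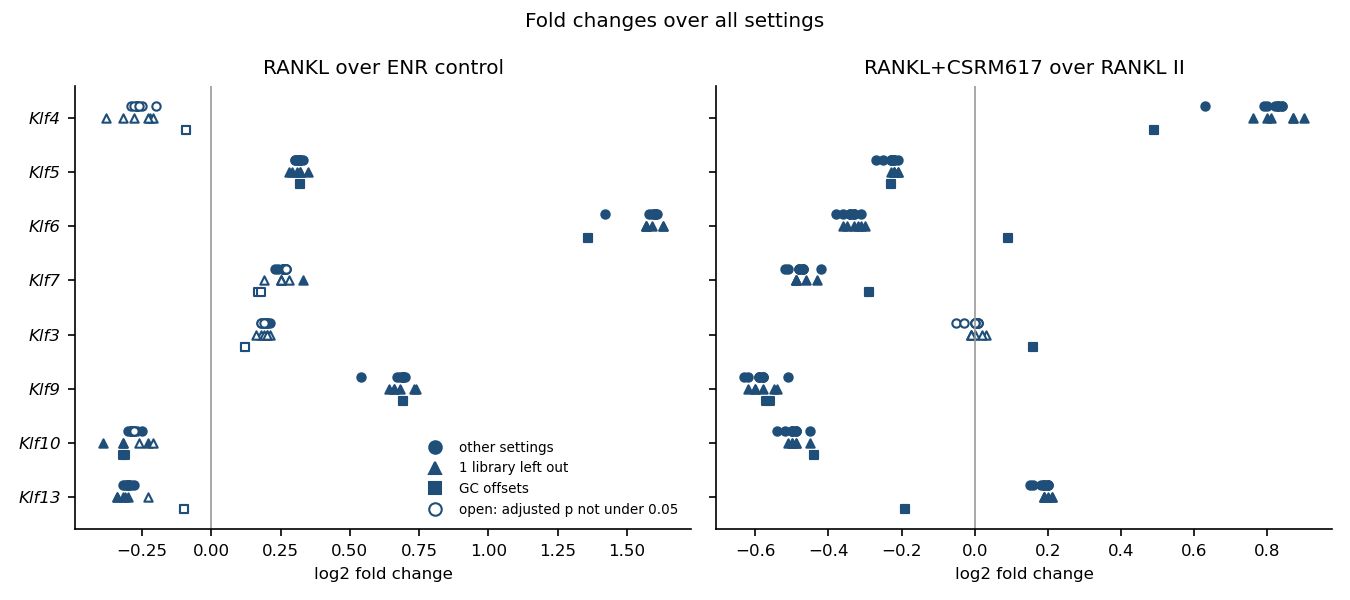
Log2 fold change of each member (x axis) under all settings of each comparison: GC offsets (squares), 1 library left out (triangles) and the others (circles), open where the adjusted p is not under 0.05. On the RANKL side Klf5, Klf6 and Klf9 show filled symbols to the right of 0 only; on the CSRM617 side the squares of Klf6 and Klf13 lie across 0 from their other symbols.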

How the data were processed

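Gene-level raw counts and normalized values of 12 bulk RNA-seq libraries were used, in 2 tables of each kind, 1 per comparison. Per the labels' protocols, 1 µg of total RNA was depleted of ribosomal RNA and read as 42-bp pairs. The raw counts were deposited by the authors per gene symbol, and the submitters' processing notes name STAR, HTSeq 0.13.5, DESeq2 1.34.0 and mm10/GRCm38. Of the strand setting, the annotation and the STAR version nothing is given in the sources used here. The normalized values the authors deposited are on a log2 scale, made by a transformation that those sources do not name. They served as 1 alternative.

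Each comparison was fitted on its own 6 libraries and all genes with edgeR 4.0.16 (robust quasi-likelihood test, two-sided, TMM scaling, genes kept by filterByExpr) in R 4.3.3, with Benjamini-Hochberg adjusted p under 0.05. SE is the unshrunken log2 change over the square root of F. CPM are TMM-scaled, and CPM per kb divides by the union exon length of GENCODE M21 (GRCm38). Means are given ± SD over 3 libraries. GC offsets are a lowess (span 0.3) of log2 CPM minus the gene's mean on the GC content of the longest transcript, per library, centred. Length, GC and biotype came from that annotation, and upstream sequences from RefSeq. Alternatives were DESeq2 1.42.0, limma 3.58.1 on the log2 values, RLE and upper-quartile factors, no filter, a filter of at least 50 counts in 3 libraries, the replicate number as a block, GC offsets, both, no ribosomal RNA loci and mitochondrial genes, and each library left out. The scripts were tested on simulated data. The members and gene lists were chosen with earlier results of these data known, so no list count is independent support. All 9 members are named, up to 4 called genes per list with the smallest p, all of a list with at most 5 measured genes, and the 2 most similar genes of each member called in both comparisons. A gene that this rule would name is not reported here.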

Additional observations from a re-analysis of the deposited data

How the results depend on the processing

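The number of genes called stayed within 1.5 times of 3897 higher and 3802 lower (RANKL) and of 4980 and 5134 (CSRM617) under each alternative run, and each library left out gave 3362 to 4132 higher and 3287 to 4068 lower, and 4714 to 5037 and 4781 to 5084. With RANKL, the members called higher numbered 5, but 4 with DESeq2, with upper-quartile factors or with no filter, 3 with GC offsets, with or without the block, and 3 to 5 with 1 library left out. Those called lower numbered 2, but 1 with DESeq2, 1 with GC offsets, with or without the block, and 1 to 2 with 1 library left out. With CSRM617, 2 were higher and 5 lower, and 2 and 5 with any 1 library left out.

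Replicate numbers 1 to 3 recur in each group, but the labels do not say that equal numbers shared a culture or day. Deviations from the group means correlated between equal numbers at 0.018, 0.137 and 0.031 (RANKL and ENR control) and 0.024, 0.037 and 0.058 (the CSRM617 comparison). RANKL replicate 1 was closer to control 3 (0.039), and RANKL replicate 3 was closer to control 1 (0.041). With the replicate number as a block, 3893 genes were higher and 3808 lower with RANKL, and 4977 and 5118 with CSRM617. The block changed no member's call, but moved the corepressors higher with RANKL to 2, the KLF4 and KLF6 targets lower with RANKL to 1 and the amino acid catabolism genes lower with CSRM617 to 1.

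Among the members and the list genes picked by the naming rule, signs turned as follows (log2 changes). Other genes of the lists and markers turned too with GC offsets, Hdac2, Smad7 and Ccl20 above among them. With RANKL, Klf16 was 0.21 with GC offsets and 0.22 with block and GC offsets, and Per1 0.17 in both. Sp2 was -0.0081 without RANKL replicate 1 and -0.095 without ENR control replicate 2, and Sp4 was 0.031 without RANKL replicate 2 and 0.052 without ENR control replicate 2; with 1 library left out they ran from -0.095 to 0.11 and from -0.16 to 0.052. With CSRM617, Klf3 was 0.0055 (DESeq2), 0.0056 (RLE factors), 0.0055 (limma), 0.0026 (without ribosomal RNA loci and mitochondrial genes), 0.03, 0.0019 and 0.016 (without RANKL+CSRM617 replicate 1 or 3 or RANKL II replicate 3) and 0.16 with GC offsets. Klf11 was -0.031 (upper-quartile factors), -0.016 (stricter filter), -0.042 and -0.071 (without RANKL+CSRM617 replicate 1 or RANKL II replicate 3), -0.05 with GC offsets and -0.051 with block and GC offsets. With 1 library left out, Klf3 ran from -0.011 to 0.03 and Klf11 from -0.071 to 0.076. With GC offsets and with block and GC offsets, Klf6 was 0.089 and 0.088, Bcat2 -0.014 and -0.0098, Klf16 -0.31 and -0.30, Skil 0.03 and 0.028, and Sp3 0.14 and 0.13. In both fits Klf13 was -0.19, Btrc 0.40, Krt19 -0.075, Nr3c1 0.23, Per1 -0.22, Sp4 0.40 and Wwp1 0.16, and Klf3 0.16. The offsets differ from the reported fit in the GC trend alone. No other cause was tested. With 3 libraries a group and 58 to 291 counts for Klf4, small changes of low members were the least resolved.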
